A study of Mus musculus with 8 samples.

Results

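Oncofetal genes are active in the fetal liver, nearly silent in the adult organ, and often active again in liver tumours. The levels of 9 such genes and other liver tumour markers were read in mouse liver RNA: Gpc3, Tspan8, Akr1c18, Igdcc4, Golm1, Vil1, Igf2bp3, Igf2bp1 and Lin28b. They were selected by name from the 37583 genes of the deposited count table, with earlier results of these libraries known. Their values are therefore a description, no p-value is given for them, and their counts support nothing on their own. All 9 were counted, and all 9 passed the filter on low counts that left 17362 genes for testing.

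RNA of whole liver was sequenced in 8 libraries of 3 groups, all from C57BL6/CBA mice aged 8 months. The 4 PR-SET7_LOBE libraries carry the genotype label PR-SET7_LX_ALB_CRE, which is an inactivation of the histone H4 methyltransferase Pr-Set7 in hepatocytes. Albumin-Cre leaves the gene intact in stromal, endothelial and blood cells. The labels do not say whether ductal cells lost it, and they do not spell out LOBE. The 2 DEN_WT libraries are from wild-type mice that were given diethylnitrosamine, a liver carcinogen, by intraperitoneal injection at postnatal day 15. The labelled dose is 25 ml per kg, and its concentration is not stated. The 2 WT libraries are wild-type livers with no agent in the labels. The labels do not say whether tumour or surrounding tissue was taken, or that replicates come from separate animals, so the spread given here is that between these samples and may be technical.

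The 9 genes fall into families with different roles. Gpc3, Tspan8, Igdcc4 and Golm1 encode membrane proteins, Akr1c18 is a steroid-converting enzyme, and Vil1 bundles the actin of microvilli. Lin28b, Igf2bp1 and Igf2bp3 encode RNA-binding proteins of the fetal programme: LIN28B blocks the maturation of let-7 microRNAs, and the IGF2BP proteins bind messenger RNAs such as that of Igf2. Mature let-7 represses messenger RNAs that carry matches to its seed, and in mammals these include the RNAs of all 3 of these proteins.

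The libraries held between 7305595 and 16108081 counts. Levels are in CPM, read counts divided by the library size after TMM scaling, and 3 counts in a library correspond to between 0.265 and 0.287 CPM. Counts come from amplified reads without molecular identifiers, so detection floors cover counting error only. PR-SET7_LOBE replicate 1 stood apart: its log2 CPM correlated more closely with WT (mean r = 0.923 across genes) than with its own group (0.890). Its deviations also followed transcript GC content most (r = 0.623). That correlation was -0.0357, -0.3 and -0.245 in PR-SET7_LOBE replicates 2 to 4, -0.286 and -0.254 in DEN_WT, and 0.31 and 0.202 in WT. DEN_WT and WT thus differed in its sign, and its part in the comparisons was not tested. The number of genes with any count was 18681, 22249, 26437 and 24812 in PR-SET7_LOBE replicates 1 to 4, 22271 and 21754 in DEN_WT and 18037 and 20781 in WT. Setd8, the gene of Pr-Set7, differed by -0.01 on the log2 scale between libraries labelled PR-SET7_LOBE and those labelled WT (SE 0.32, adjusted p = 0.994, edgeR quasi-likelihood test). Its deleted part is not given and the count covers the whole gene, so it does not check the labels. Hepatocyte markers, led by Alb, Apoa1 and Serpina1a, summed to between 49400 and 168000 CPM in PR-SET7_LOBE, 131000 and 164000 CPM in DEN_WT and 113000 and 149000 CPM in WT, so RNA of hepatocytes was present in every library.

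Gpc3, Tspan8 and Akr1c18 were far below DEN_WT in every PR-SET7_LOBE library, and Gpc3 and Tspan8 were lower still in both WT libraries. Gpc3 (ENSMUSG00000055653, mm9 chromosome X, 49625603 to 49967127, minus strand) encodes glypican 3, a heparan sulphate proteoglycan of the cell surface that is a tissue marker of human hepatocellular carcinoma. Gpc3 had 9.11, 9.57, 6.87 and 18.5 CPM in the PR-SET7_LOBE libraries, 91.5 and 113 CPM in DEN_WT, and 1.15 and 2.49 CPM in WT. No PR-SET7_LOBE library overlapped either of the other groups, so the order was DEN_WT, PR-SET7_LOBE, WT. The log2 fold change was 2.59 (SE 0.54) in PR-SET7_LOBE and 5.8 (SE 0.65) in DEN_WT against WT, and -3.21 (SE 0.44) in PR-SET7_LOBE against DEN_WT. Without WT replicate 2, the values against WT were 3.32 in PR-SET7_LOBE and 6.54 in DEN_WT. In bulk RNA, more cells of a type that makes the gene cannot be told apart from more RNA per cell, here and for all values that follow.

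Tspan8 (ENSMUSG00000034127, mm9 chromosome 10, 115254340 to 115286949, plus strand) encodes a tetraspanin, a membrane protein found at raised levels in human carcinomas of the digestive tract. It had 4.51, 6.70, 7.24 and 3.64 CPM in PR-SET7_LOBE, 58.1 and 155 CPM in DEN_WT, and 0 and 0.645 CPM in WT. The groups did not overlap, and the DEN_WT libraries differed from each other by 2.67-fold. The log2 fold change of Tspan8 was 4.03 (SE 0.86) in PR-SET7_LOBE and 8.30 (SE 1.00) in DEN_WT against WT, and -4.27 (SE 0.59) in PR-SET7_LOBE against DEN_WT. The size of the values against WT depended on 1 library, since all 7 WT counts were in replicate 2. Without WT replicate 1 they were 3.11 in PR-SET7_LOBE and 7.37 in DEN_WT. Without WT replicate 2 the fitted values were 8.92 in PR-SET7_LOBE and 13.18 in DEN_WT, but WT then has no count, so they are no bound. Leaving out DEN_WT replicate 2 gave 7.43 in DEN_WT against WT and -3.39 in PR-SET7_LOBE against DEN_WT, and a correction for transcript GC content, chosen after seeing the data, gave 7.36 in DEN_WT against WT.

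Akr1c18 (ENSMUSG00000021214, mm9 chromosome 13, 4131861 to 4149900, minus strand) encodes 20α-hydroxysteroid dehydrogenase, which inactivates progesterone. Its levels were 0.376, 4.30, 2.60 and 1.37 CPM in PR-SET7_LOBE, 64.8 and 103 CPM in DEN_WT, and 0.383 and 0.277 CPM in WT. PR-SET7_LOBE replicate 1 lay between the WT libraries, and the other 3 were above both. On the log2 scale the fold change was 2.67 (SE 0.89) in PR-SET7_LOBE and 7.95 (SE 1.02) in DEN_WT against WT, and -5.27 (SE 0.64) in PR-SET7_LOBE against DEN_WT. With the correction for GC content the value in DEN_WT against WT was 7.2. Its nearest copy, Akr1c20, was 76.9% identical over 86.1% of the transcript, and how reads that match both were counted is not given.

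**Figure D1:**
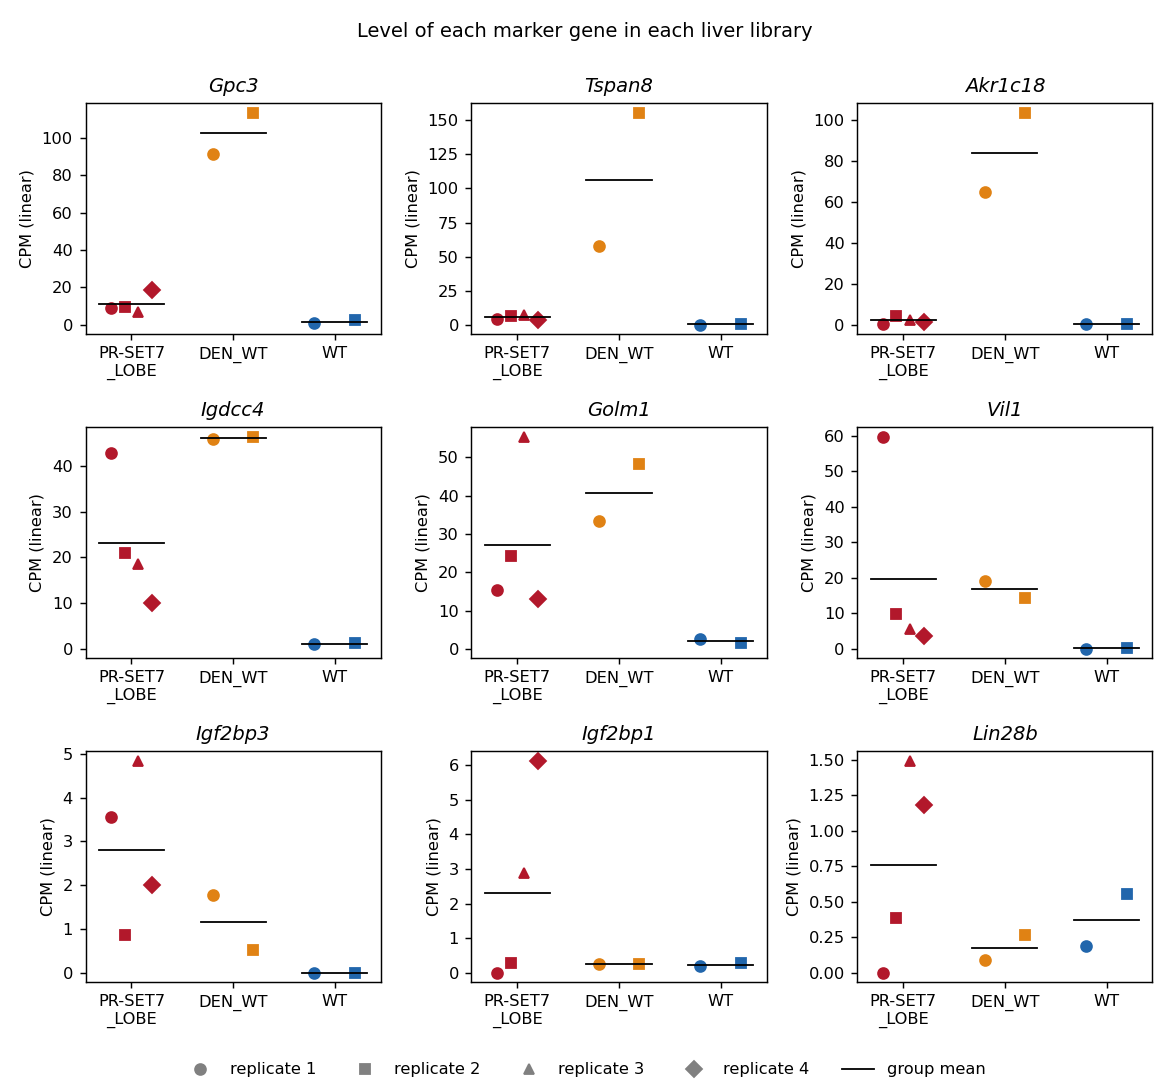
CPM of each of the 9 genes (linear axes, 1 panel a gene) by group, with a symbol for each replicate number and a black line at the group mean. Gpc3, Tspan8 and Akr1c18 peak in DEN_WT, Igdcc4, Golm1 and Vil1 are above WT in both other groups, and Igf2bp1 and Lin28b are highest in PR-SET7_LOBE replicates 3 and 4.

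Igdcc4, Golm1 and Vil1 were above WT in every PR-SET7_LOBE and DEN_WT library, and the PR-SET7_LOBE libraries reached or passed the DEN_WT level in at least 1 library for Golm1 and Vil1. Igdcc4 (ENSMUSG00000032816, mm9 chromosome 9, 64949293 to 64985747, plus strand) encodes an immunoglobulin-superfamily receptor of the DCC family, also named Nope, a surface marker of mouse fetal liver progenitors. Igdcc4 had 42.8, 20.9, 18.6 and 9.93 CPM in PR-SET7_LOBE, 46.0 and 46.3 CPM in DEN_WT, and 1.15 and 1.20 CPM in WT. DEN_WT and WT were each tight, while the PR-SET7_LOBE libraries spread 4.31-fold without reaching either. Its log2 fold change was 4.28 (SE 0.65) in PR-SET7_LOBE and 5.28 (SE 0.71) in DEN_WT against WT, and -1.0 (SE 0.48) in PR-SET7_LOBE against DEN_WT. Within PR-SET7_LOBE it was highest in replicate 1, the library with the strongest GC trend, and its transcript is 55.0% G and C. With the correction for GC content, the values against WT were 4.19 in PR-SET7_LOBE and 5.53 in DEN_WT. The part of GC content in these levels was not tested.

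Golm1 (ENSMUSG00000021556, mm9 chromosome 13, 59736357 to 59777145, minus strand) encodes GP73, a Golgi membrane protein that is shed into serum in human liver cancer. It had 15.5, 24.2, 55.3 and 13 CPM in PR-SET7_LOBE, 33.3 and 48.3 CPM in DEN_WT, and 2.49 and 1.57 CPM in WT. PR-SET7_LOBE replicate 3 was the highest of all 8 libraries and the other 3 lay below DEN_WT, so these groups overlapped. In log2 fold change this was 3.73 (SE 0.70) in PR-SET7_LOBE and 4.32 (SE 0.75) in DEN_WT against WT, and -0.59 (SE 0.54) in PR-SET7_LOBE against DEN_WT. A later annotation lets Golm1 share 1297 transcript bases with Naa35, a gene that overlapped no part of it in the deposited coordinates and had 6.57, 10.9, 10.6 and 10.3 CPM in PR-SET7_LOBE, 25.8 and 20.1 CPM in DEN_WT and 6.22 and 12.5 CPM in WT.

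Vil1 (ENSMUSG00000026175, mm9 chromosome 1, 74455950 to 74482133, plus strand) encodes villin, which in the liver lies at bile canaliculi and in bile duct cells. Vil1 levels were 59.5, 9.76, 5.57 and 3.55 CPM in PR-SET7_LOBE, 19.1 and 14.4 CPM in DEN_WT, and 0 and 0.369 CPM in WT. Replicate 1 alone put the PR-SET7_LOBE mean of 19.6 ± 26.8 CPM (SD, n = 4) above the DEN_WT mean of 16.8 ± 3.34 CPM (SD, n = 2), and the other 3 libraries were below DEN_WT. The log2 fold change was 6.63 (SE 1.56) in PR-SET7_LOBE and 6.40 (SE 1.60) in DEN_WT against WT, and 0.23 (SE 0.97) in PR-SET7_LOBE against DEN_WT. Without PR-SET7_LOBE replicate 1 the last of these turned to -1.41 (SE 0.57). All 4 WT counts of Vil1 were in replicate 2. Without WT replicate 1 the values against WT were 5.73 in PR-SET7_LOBE and 5.49 in DEN_WT. Without WT replicate 2 the fitted values were 10.76 in PR-SET7_LOBE and 10.52 in DEN_WT, which, against a WT group with no count, are no bound. PR-SET7_LOBE replicate 1 had the strongest GC trend, and the transcript of Vil1 is 53.2% G and C, against a median of 50% over the tested genes. With a correction for GC content the log2 fold change in PR-SET7_LOBE against DEN_WT was -0.07. As for Igdcc4, the part of GC content in these levels was not tested. Vil1 overlaps 50 bases of Usp37 on the opposite strand, whose level was between 1.69 and 10.4 CPM and lowest in that same library, and whether counting used the strand is not given.

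The RNA-binding genes had few counts in any library, and the PR-SET7_LOBE libraries split on them. Igf2bp3 (ENSMUSG00000029814, mm9 chromosome 6, 49035220 to 49164953, minus strand) had 38, 9, 52 and 22 counts in PR-SET7_LOBE, 20 and 6 counts in DEN_WT, and no count in either WT library. This is 3.57, 0.861, 4.83 and 2.00 CPM in PR-SET7_LOBE and 1.77 and 0.530 CPM in DEN_WT, against a WT floor of 0.141 CPM for 3 counts over the group. The group mean of Igf2bp3 was 20.0 times that floor in PR-SET7_LOBE and 8.17 times in DEN_WT. These ratios leave out the spread between the libraries of each group, so they do not bound the fold change. Igf2bp3 was the only one of the 9 genes without a count in WT. PR-SET7_LOBE and DEN_WT overlapped, with a log2 fold change of 1.28 (SE 0.86). The gene shares 1531 bases with 2410003K15Rik on the opposite strand, which was at 5.64, 10, 3.71 and 3.83 CPM in PR-SET7_LOBE, 8.68 and 9.54 CPM in DEN_WT and 8.33 and 18.3 CPM in WT. The highest library of 2410003K15Rik was WT replicate 2, where Igf2bp3 had no count. How reads in the shared bases were counted is not given, and their part in the Igf2bp3 counts was not tested.

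Igf2bp1 (ENSMUSG00000013415, mm9 chromosome 11, 95818477 to 95867254, minus strand) had 0, 3, 31 and 67 counts in PR-SET7_LOBE, 3 and 3 in DEN_WT and 2 and 3 in WT. In CPM this was 0, 0.287, 2.88 and 6.10 in PR-SET7_LOBE, 0.266 and 0.265 in DEN_WT, and 0.191 and 0.277 in WT. PR-SET7_LOBE replicates 3 and 4 were above every other library, and replicates 1 and 2 were at or below the level of 3 counts, as were DEN_WT and WT. On the log2 scale the fold change was 3.25 (SE 1.61) in PR-SET7_LOBE and 0.17 (SE 1.84) in DEN_WT against WT, and 3.07 (SE 1.58) in PR-SET7_LOBE against DEN_WT.

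Lin28b (ENSMUSG00000063804, mm9 chromosome 10, 45096426 to 45206201, minus strand) had 0, 4, 16 and 13 counts in PR-SET7_LOBE, 1 and 3 in DEN_WT and 2 and 6 in WT. Its levels were 0, 0.383, 1.49 and 1.18 CPM in PR-SET7_LOBE, 0.0885 and 0.265 CPM in DEN_WT, and 0.191 and 0.553 CPM in WT. Here too PR-SET7_LOBE replicates 3 and 4 were the highest libraries, and all 3 groups overlapped. In log2 fold change this was 1.01 (SE 1.37) in PR-SET7_LOBE and -1.03 (SE 1.65) in DEN_WT against WT, and 2.04 (SE 1.49) in PR-SET7_LOBE against DEN_WT. Replicates 3 and 4 were also the libraries with the most genes holding a count, as given above, and the pancreatic enzymes Cpa1 (0, 0, 0.557 and 2.19 CPM in PR-SET7_LOBE replicates 1 to 4) and Ctrb1 (0.188, 0, 0.557 and 7.83 CPM) were highest there. Both were named after their values were seen. Within PR-SET7_LOBE, all of their list of 10 gut and pancreas markers but Fabp2 and Cela1 were highest in replicates 3 and 4. Most of these were near the floor, such as Pnlip at 0, 0, 0.278 and 1.64 CPM. The sum of the list did not share that order, at 58.7, 36.2, 32 and 72.3 CPM in the 4 libraries. It was led by the elastase gene Cela1 at 55, 23.4, 19.3 and 30.5 CPM. The part of these differences in the Igf2bp1 and Lin28b values was not tested.

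Let-7 is shown here because the 3 RNA-binding genes are its classic targets; mature microRNAs were not measured in these libraries. All 8 mature mouse let-7 5p names of RefSeq (GRCm38.p6) share the seed at bases 2 to 8, in capitals below, and the sites are 30-base windows of the 3′ UTR from GENCODE M21 transcripts (GRCm38), with the seed match CTACCTC in capitals.
let-7a-5p, chr13:48538239-48538260, minus strand: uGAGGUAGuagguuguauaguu
Lin28b site at UTR base 36, chr10:45381011-45381040, minus strand: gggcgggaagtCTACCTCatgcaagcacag
Lin28b site at UTR base 2410, chr10:45378637-45378666, minus strand: cttgttagtaaCTACCTCtgagtttgacat
Igf2bp1 site at UTR base 1715, chr11:95961767-95961796, minus strand: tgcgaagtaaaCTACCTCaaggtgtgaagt
Igf2bp1 site at UTR base 4136, chr11:95959346-95959375, minus strand: agtgctattaaCTACCTCagccccagaggg
Igf2bp3 site at UTR base 548, chr6:49086776-49086805, minus strand: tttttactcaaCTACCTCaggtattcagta
Igdcc4 site at UTR base 808, chr9:65136325-65136354, plus strand: taacaacatgaCTACCTCatgtctgcttca

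The longest 3′ UTR of Lin28b (4445 bases) held 4 seed matches, counted on the transcript strand. Of 1358 UTRs of similar length, 0.295% held at least as many. Igf2bp1 (6337 bases) also held 4, and 0.331% of 605 UTRs of like length held at least as many. Each set of UTRs compared here included the gene itself. Lin28b and Igf2bp1 were shown as classic let-7 targets, so these shares are a description. Igf2bp3 (2119 bases) held 1, as 13.3% of UTRs of like length did, and Igdcc4 (2412 bases) held 1, against 14.2%. The UTRs of Gpc3, Tspan8, Akr1c18, Vil1 and Golm1 held no match, which says only that these letters are absent from those UTRs. A match is a description of the sequence and not a measured site, and any part of let-7 in the levels of these genes was not tested.

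**Figure D2:**
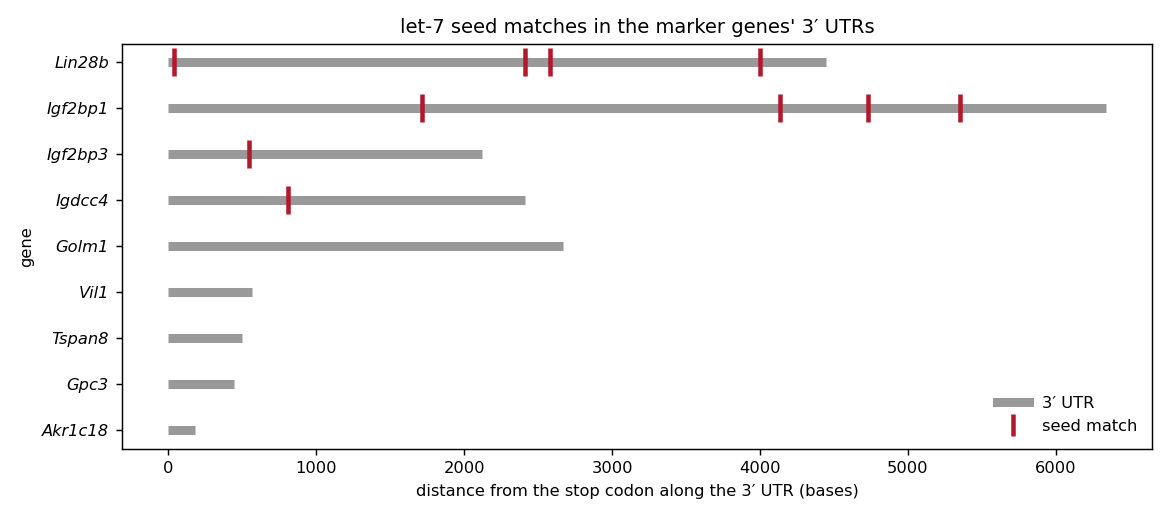
Position of let-7 seed matches (red ticks) along the longest annotated 3′ UTR (grey bars) of each gene, in bases from the stop codon. Lin28b and Igf2bp1 hold 4 matches each, Igf2bp3 and Igdcc4 hold 1 each, and the other 5 genes hold none.

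Set against all genes, the comparisons differed in how much moved. In DEN_WT against WT, 7 of the 9 genes were higher at an adjusted p under 0.05, all but Igf2bp1 and Lin28b, where 5.18% of all tested genes were higher and 4.54% lower. The same 7 genes did not overlap between these groups, with both DEN_WT libraries above both WT libraries, as 37.8% of all tested genes did. In PR-SET7_LOBE against WT only Igdcc4 was past the threshold, with 0.15% of all genes higher and 0.0979% lower. In 6 of 9 genes, all but Akr1c18, Igf2bp1 and Lin28b, every PR-SET7_LOBE library was above both WT libraries, against 11.6% of all genes. In PR-SET7_LOBE against DEN_WT, Gpc3, Tspan8 and Akr1c18 were lower past the threshold, with 6.26% of all genes lower and 4.82% higher. Every PR-SET7_LOBE library was below both DEN_WT libraries in 4 genes, these 3 and Igdcc4, as in 21.2% of all genes. Because the genes were chosen from these same libraries, nothing is read from the counts. The comparisons with WT share the same 2 WT libraries.

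**Figure D3:**
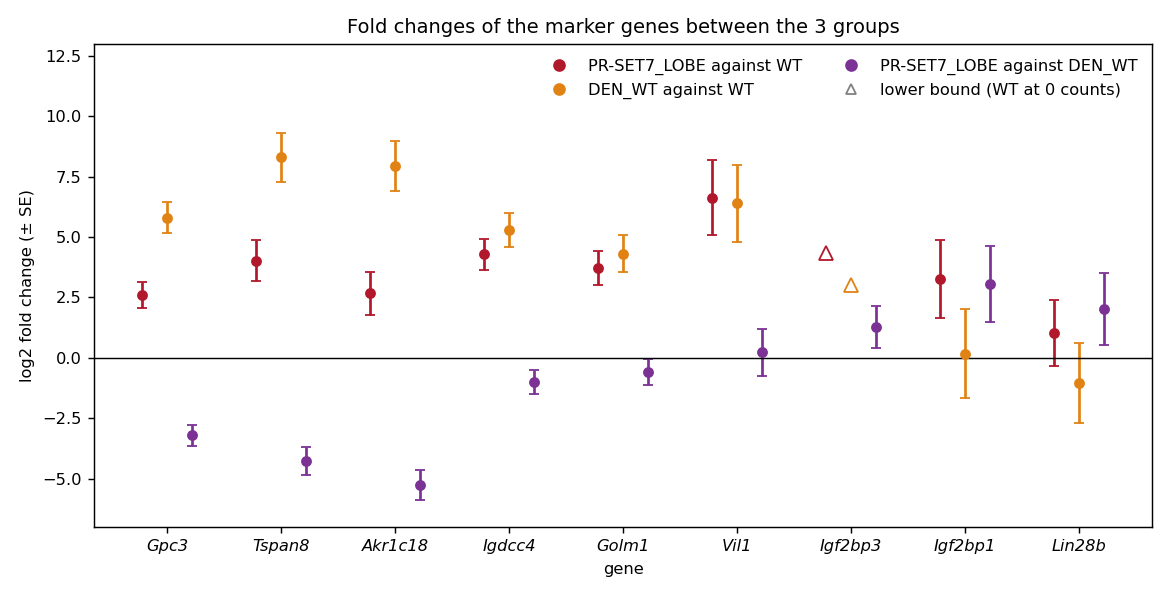
Log2 fold change with its standard error for each gene in the 3 comparisons. Open triangles (lower bound in the key) give the group mean of Igf2bp3 over the WT floor, as it had no count in WT. PR-SET7_LOBE against DEN_WT runs from -5.27 for Akr1c18 to 3.07 for Igf2bp1.

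How many genes passed in PR-SET7_LOBE against WT changed with single libraries. Without PR-SET7_LOBE replicate 1, 7 of the 9 genes passed, all but Igf2bp1 and Lin28b, and 2380 of all genes against 43 with every library. The log2 fold changes of 5 of those genes moved by less than the standard errors given above for all libraries: without it Gpc3 was at 2.67 (SE 0.52), Tspan8 at 4.11 (SE 0.87), Akr1c18 at 3.02 (SE 0.63), Igdcc4 at 3.8 (SE 0.43) and Golm1 at 3.92 (SE 0.66). Vil1 moved by more, to 4.99 (SE 0.86) without it against 6.63 with all libraries. Igf2bp3, given above as a ratio to the WT floor, also passed. Igdcc4 lost its call without PR-SET7_LOBE replicate 2, WT replicate 1 or WT replicate 2, at log2 fold changes of 4.40, 4.29 and 4.40 (SE 0.71, 0.97 and 0.98) against 4.28 (SE 0.65) with every library. It also lost it in a fit of these 2 groups alone (4.27, SE 0.70). In DEN_WT against WT, Vil1 and Igf2bp3 lost theirs without any 1 of the DEN_WT or WT libraries, and Golm1 without either WT library, at 4.72 (SE 1.11) without replicate 1 and 4.11 (SE 1.06) without replicate 2, against 4.32 (SE 0.75). Vil1 also lost its call there with no filter on low counts, and Igf2bp3 with the correction for GC content. In DEN_WT against WT, the calls of Gpc3, Tspan8, Akr1c18 and Igdcc4 were kept in all 18 alternatives in which they were tested. In PR-SET7_LOBE against DEN_WT, those of Gpc3, Tspan8 and Akr1c18 were kept in all 18 as well. The alternatives reuse libraries from which the genes were chosen, so calls kept or lost are a description and support nothing.

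**Figure D4:**
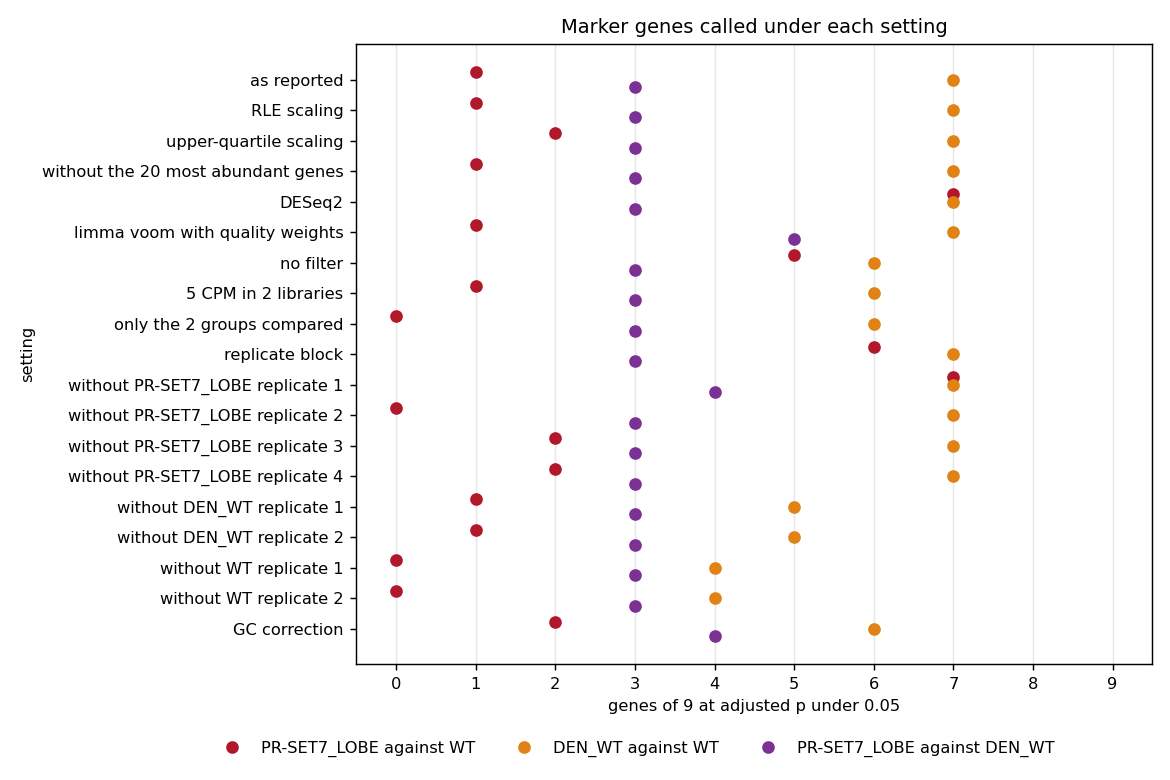
Number of the 9 genes at an adjusted p under 0.05 (horizontal axis) under each setting (vertical axis) for the 3 comparisons. PR-SET7_LOBE against WT runs from 0 to 7, DEN_WT against WT from 4 to 7, and PR-SET7_LOBE against DEN_WT from 3 to 5.

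Levels of different genes were compared per kb of exon. In PR-SET7_LOBE, Golm1 was first at 6.10 ± 4.40 CPM per kb (SD, n = 4), followed by Vil1 at 5.53 ± 7.55, Gpc3 at 4.09 ± 1.91 and Tspan8 at 3.25 ± 1.01 CPM per kb, and these neighbours did not differ beyond their spread. In DEN_WT, Akr1c18 was first at 69.5 ± 22.3 CPM per kb (SD, n = 2), ahead of Tspan8 at 62.6 ± 40.3 and Gpc3 at 38.0 ± 5.66; Akr1c18 and Tspan8 did not differ beyond their spread, and Golm1 followed at 9.21 ± 2.38 CPM per kb. In WT no gene was above the 0.677 ± 0.352 CPM per kb of Gpc3 (SD, n = 2). Igf2bp1 and Lin28b were the lowest in PR-SET7_LOBE, at 0.239 ± 0.293 and 0.0841 ± 0.0760 CPM per kb, and also in DEN_WT, at 0.0275 and 0.0195 CPM per kb.

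The 4 PR-SET7_LOBE libraries did not share 1 order across the genes. Replicate 1 was highest for Igdcc4 and Vil1 and lowest for Akr1c18, Igf2bp1 and Lin28b. Replicate 2 was highest for Akr1c18, replicate 3 for Tspan8, Golm1, Igf2bp3 and Lin28b, and replicate 4 for Gpc3 and Igf2bp1. Replicate 4 was lowest for Tspan8, Igdcc4, Vil1 and Golm1. Likeness of pattern was measured as the root mean square difference of centred log2 CPM over the 8 libraries, a description in which all genes share the same libraries and depths. Lin28b and Igf2bp1 were the closest pair of the 9 at 0.84, followed by Igdcc4 with Golm1 at 0.85, Igdcc4 with Vil1 at 0.86 and Gpc3 with Tspan8 at 1.07. The farthest pair was Akr1c18 with Igf2bp1, at 3.33.

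Among all tested genes with a mean log2 CPM of at least 1, the matrix protein gene Spp1 was nearest to Igdcc4 (0.55), and the growth factor gene Nrg1 was also among its 3 nearest (0.68). Spp1 had 176, 249, 191 and 68.8 CPM in PR-SET7_LOBE, 383 and 679 CPM in DEN_WT, and 15.5 and 9.04 CPM in WT. Nearest to Golm1 were D17H6S56E-5 (0.50), the macrophage metalloproteinase gene Mmp12 (0.59) and Glipr2 (0.59). Gpc3 was nearest to Gstm2-ps1 (0.81), Gpr110 (0.84) and the basement membrane collagen gene Col4a3 (0.88), and Tspan8 to the asparagine synthetase gene Asns (0.98). Akr1c18 was nearest to Wfdc15b (0.85), which had 0.657, 2.97, 0.650 and 0.638 CPM in PR-SET7_LOBE, 28.8 and 33.8 CPM in DEN_WT, and 0.191 and 0.553 CPM in WT. Vil1 was nearest to Igdcc4 and the calcium channel gene Cacna1b (both 0.86). Igf2bp1 was nearest to the titin gene Ttn (0.47), Wdr70 (0.55) and Hmcn1 (0.56), which were all highest in PR-SET7_LOBE replicates 3 and 4. The 3 genes nearest to Lin28b included Cks2 (0.45) and Ncoa7 (0.46), and Igf2bp3 was nearest to Iqgap3 (0.55), the tissue plasminogen activator gene Plat (0.59) and Nlrp12 (0.64).

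Relatives of the 9 genes were read from 8 lists of 131 genes, of which 123 were tested. The lists, like the 9 genes, were chosen with earlier results of these libraries known. Their counts, medians and p-values are therefore a description. In PR-SET7_LOBE against WT 2 passed, both higher; in DEN_WT against WT 9 were higher and 2 lower; in PR-SET7_LOBE against DEN_WT 6 were higher and 4 lower. In these comparisons 1.63%, 8.94% and 8.13% of the relatives passed, against 0.248%, 9.73% and 11.1% of all tested genes, so in both comparisons with DEN_WT the share was no higher than over all genes. The median log2 fold change over the tested relatives was 0.40, 0.15 and 0.39 in these comparisons, against 0.11, 0.06 and 0.18 over all genes. These counts moved with single libraries. In PR-SET7_LOBE against WT 33 relatives passed without PR-SET7_LOBE replicate 1, and 0 without either WT library. In DEN_WT against WT 30 passed without PR-SET7_LOBE replicate 1, 2 without DEN_WT replicate 1, DEN_WT replicate 2 or WT replicate 1, and 4 without WT replicate 2. In PR-SET7_LOBE against DEN_WT 3 passed without DEN_WT replicate 1 and 1 without DEN_WT replicate 2. The p-values below are from edgeR's quasi-likelihood test with Benjamini-Hochberg adjustment over all tested genes.

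Few relatives of Gpc3, Tspan8 and Igdcc4 passed. Of 8 tested glypicans and syndecans, Gpc6 fell in DEN_WT, with 14.3 and 14.3 CPM against 182 and 28.8 CPM in WT (log2 fold change -2.88, SE 0.72, adjusted p = 0.0321). Gpc6 was also higher in PR-SET7_LOBE than in DEN_WT (2.89, SE 0.68, adjusted p = 0.0202), while Sdc2, a syndecan, was lower (-1.62, SE 0.35, adjusted p = 0.0121). Of 25 tested tetraspanins, Cd63, a marker of endosomes and exosomes, rose in DEN_WT against WT, with 54.4 and 36.4 CPM against 3.45 and 3.60 CPM (log2 fold change 3.68, SE 0.85, adjusted p = 0.0238). Cd63 had 68.7, 108, 30 and 12.8 CPM in PR-SET7_LOBE, a difference of 3.96 from WT (SE 0.83) that did not pass (adjusted p = 0.0854). Tspan12, a Norrin co-receptor in the retina, and Tspan2 were lower in PR-SET7_LOBE than in DEN_WT (-1.65 and -3.00 on the log2 scale, adjusted p = 0.00719 and 0.0217). In the DCC family of 4 genes, Prtg, which encodes protogenin, was higher in PR-SET7_LOBE than in DEN_WT, with 0.845, 2.97, 4.08 and 11.7 CPM against 0.266 and 0.265 CPM (4.15, SE 1.17, adjusted p = 0.0444).

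Few relatives of the enzyme and cytoskeletal genes passed. In DEN_WT against WT these were 1 of 14 aldo-keto reductases and 2 of 13 villin relatives and brush border genes, with median log2 fold changes of 0.47 and -0.42 over the lists, and no gene of either list passed in the other comparisons. Of the aldo-keto reductases, Akr1e1 rose in DEN_WT to 14.4 and 21.2 CPM, against 4.69 and 4.89 CPM in WT (1.89, SE 0.48, adjusted p = 0.0330). Akr1c6, the liver 17β-hydroxysteroid dehydrogenase, had 133, 113, 275 and 417 CPM in PR-SET7_LOBE, 482 and 459 CPM in DEN_WT and 322 and 405 CPM in WT, and passed in no comparison. Among the brush border genes, Cdhr2, an adhesion protein between microvilli, rose in DEN_WT (3.23, SE 0.78, adjusted p = 0.0277), as did Pls1, the actin bundler plastin 1 (2.92, SE 0.79, adjusted p = 0.0425). In PR-SET7_LOBE, Cdhr2 had 12.0, 15.6, 5.11 and 7.38 CPM against 1.34 and 0.277 CPM in WT, which did not pass (adjusted p = 0.0834). Of the 14 Golgi and convertase genes, those with the smallest adjusted p were Golga5 in PR-SET7_LOBE (1.33, adjusted p = 0.158) and Golga1 in DEN_WT (1.94, adjusted p = 0.0543) against WT.

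Of 20 genes of the LIN28, let-7 and IGF2BP axis, Igf2bp2 and the transcription factor gene Arid3a were higher in PR-SET7_LOBE than in DEN_WT. Igf2bp2, the family member that is kept in adult tissues, had 8.08, 1.53, 12.5 and 4.55 CPM in PR-SET7_LOBE, 0.974 and 0.795 CPM in DEN_WT, and 6.79 and 3.60 CPM in WT (log2 fold change 2.90 against DEN_WT, SE 0.84, adjusted p = 0.0488). PR-SET7_LOBE and WT overlapped for Igf2bp2, and it was DEN_WT that lay lowest. Arid3a differed by 2.11 in the same comparison (SE 0.58, adjusted p = 0.0384). Lin28a, Trim71, Igf2 and H19 are named after their values were seen. Lin28a, the paralogue of Lin28b, had 0, 0, 0.928 and 1.55 CPM in PR-SET7_LOBE, 0.0885 and 0.177 CPM in DEN_WT, and 0.191 and 0.0922 CPM in WT. Trim71, a let-7 target of embryonic cells, had 0.188, 0.191, 1.49 and 3.10 CPM in PR-SET7_LOBE, 0.177 and 0.177 CPM in DEN_WT, and 0.383 and 0.0922 CPM in WT. Both were highest in PR-SET7_LOBE replicates 3 and 4, like Igf2bp1 and Lin28b, and neither passed the test (adjusted p = 0.550 and 0.388 against WT).

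Of 25 other oncofetal and tumour markers, the median log2 fold change was 2.54 in PR-SET7_LOBE and 2.45 in DEN_WT against WT. Over all genes it was 0.11 and 0.06, but the list was chosen with earlier results of these libraries known. Spp1 rose in PR-SET7_LOBE against WT (3.8, SE 0.64, adjusted p = 0.0411), as did Cbr3, a carbonyl reductase. Cbr3 had 60.2, 57.6, 69.7 and 18.5 CPM in PR-SET7_LOBE, 0.443 and 0.442 CPM in DEN_WT, and 0.191 and 0.0922 CPM in WT, where it had 3 counts; the ratio to WT was 364, with 124 and 1770 as the bounds of its 95% counting interval (adjusted p = 0.00607). In DEN_WT against WT, 5 markers rose and 1 fell. Afp, the fetal serum protein, rose to 102 and 109 CPM, against 2.49 and 2.49 CPM in WT (log2 fold change 5.40, SE 0.91, adjusted p = 0.00539). In PR-SET7_LOBE Afp was at 8.92, 32.1, 4.83 and 6.56 CPM, lower than in DEN_WT (-3.01, SE 0.62, adjusted p = 0.0105), the same order of groups as Gpc3. The others that rose were Spp1, Bex1, Ly6d and, named to complete the count, the progenitor surface marker Prom1 (adjusted p = 0.00215, 0.0414, 0.0413 and 0.0441). Sall4, a transcription factor of fetal liver progenitors, had 1.22, 5.17, 1.76 and 4.28 CPM in PR-SET7_LOBE, 0.0885 and 0.0883 CPM in DEN_WT, where it had 2 counts, and 1.53 and 1.29 CPM in WT. Its ratio of PR-SET7_LOBE to DEN_WT was 35.1, with 9.53 and 293 as the bounds of its 95% counting interval (adjusted p = 0.00901, edgeR quasi-likelihood test). The intervals of Sall4 and Cbr3 leave out the spread between libraries. PR-SET7_LOBE and WT overlapped for Sall4, and DEN_WT lay lowest.

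Igf2, the fetal growth factor whose RNA the IGF2BP proteins bind, and H19, its imprinted neighbour, were highest in PR-SET7_LOBE replicates 1 and 2. Within PR-SET7_LOBE, Igf2bp1 was lowest there, but Igf2, H19 and Igf2bp1 were all higher in replicate 4 than in replicate 3. Igf2bp3 (3.57, 0.861, 4.83 and 2.00 CPM in replicates 1 to 4) and Igf2bp2 (8.08, 1.53, 12.5 and 4.55 CPM) did not split this way. Any link between these genes was not tested. Igf2 had 2420, 2030, 1.76 and 5.65 CPM in PR-SET7_LOBE replicates 1 to 4, 10.6 and 3.8 CPM in DEN_WT, and 1.15 and 1.48 CPM in WT. H19 had 6960, 9390, 9.65 and 109 CPM in PR-SET7_LOBE, 576 and 138 CPM in DEN_WT, and 0.383 and 0.369 CPM in WT. The libraries without more than 3 counts of Igf2bp1 were those with the highest Igf2 and H19 in PR-SET7_LOBE. With this spread neither gene passed against WT in PR-SET7_LOBE (adjusted p = 0.170 for Igf2 and 0.106 for H19) or in DEN_WT (0.502 and 0.0538).

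**Figure D5:**
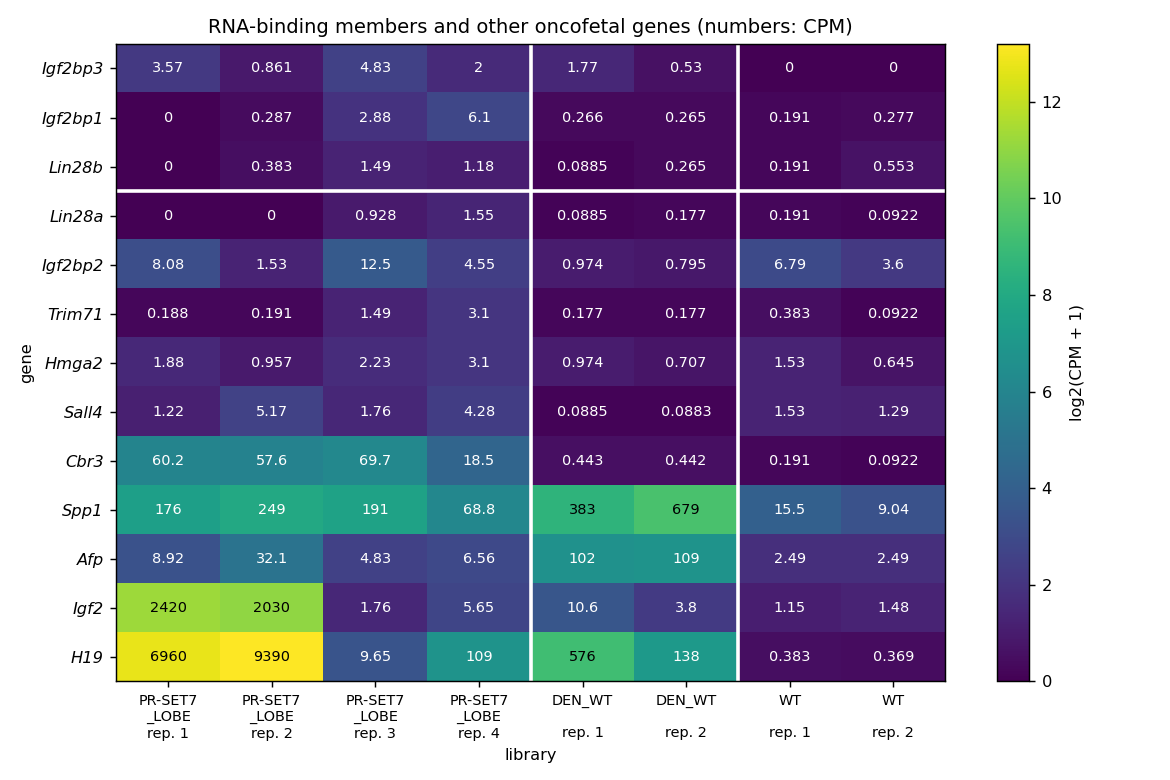
Colour gives log2(CPM + 1) and the numbers give CPM for the RNA-binding genes (above the white line) and other oncofetal genes (below it), by library. Lin28a, Trim71, Igf2bp1 and Lin28b are highest in PR-SET7_LOBE replicates 3 and 4, and Igf2 and H19 in replicates 1 and 2.

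Markers of other liver cells moved with some of these values. The summed level of 9 cholangiocyte markers was between 119 and 297 CPM in PR-SET7_LOBE, 433 and 738 CPM in DEN_WT, and 38.1 and 68.0 CPM in WT, the order of groups seen for Gpc3, Tspan8 and Igdcc4. Most of that sum was Spp1: the other 8 summed to between 40.7 and 121 CPM in PR-SET7_LOBE, 50.3 and 59.2 CPM in DEN_WT and 29 and 52.5 CPM in WT. Krt19, which defines bile duct cells, had 5.17, 0.957, 1.86 and 1.82 CPM in PR-SET7_LOBE, 1.95 and 2.21 CPM in DEN_WT, and 3.06 and 2.03 CPM in WT, and all 3 groups overlapped. Other markers of the list were above WT in every DEN_WT library. The tight junction gene Cldn7 had 3.29, 1.63, 3.43 and 2.00 CPM in PR-SET7_LOBE, 3.10 and 5.12 CPM in DEN_WT, and 0.766 and 0.553 CPM in WT. The ductal transcription factor gene Sox9 had 11.2 and 12.1 CPM in DEN_WT against 7.56 and 3.5 CPM in WT, and the chloride channel gene Cftr had 0.443 and 0.883 CPM in DEN_WT against 0 and 0.277 CPM in WT. Of 8 tested markers, Spp1 passed in PR-SET7_LOBE against WT, and Spp1 and Cldn7 passed in DEN_WT against WT, all higher, with median log2 fold changes of 1.73 and 0.78 over the list. PR-SET7_LOBE replicate 1, which had the highest Vil1, also had the highest Sox9 of all libraries, at 48.7 CPM against 17.8 to 30.9 CPM in the other PR-SET7_LOBE libraries. Markers of 10 cycling-cell genes summed to between 31.7 and 68.0 CPM in PR-SET7_LOBE, 30.2 and 40.4 CPM in DEN_WT, and 13.9 and 38.4 CPM in WT. Most of the WT sum was the kinetochore gene Cenpf, at 7.94 and 31.8 CPM. The other 9 genes summed to between 28.5 and 60.3 CPM in PR-SET7_LOBE, 27.8 and 36.7 CPM in DEN_WT, and 5.93 and 6.64 CPM in WT, so without Cenpf both groups were above WT in every library, as for Gpc3, Igdcc4 and Golm1. Over the 10 genes the median log2 fold change was 2.84 in PR-SET7_LOBE against WT, where none passed, and 2.90 in DEN_WT against WT, where 4 were higher and 1, Cenpf, was lower. PR-SET7_LOBE replicate 3, the library with the highest Golm1, Igf2bp3 and Lin28b, had the highest sum. Stellate cell and fibroblast markers summed to between 150 and 250 CPM in PR-SET7_LOBE, 177 and 361 CPM in DEN_WT, and 94 and 107 CPM in WT, so both other groups were above WT, as for Gpc3, Igdcc4 and Golm1. Lymphocyte markers were between 23.6 and 29.8 CPM in PR-SET7_LOBE, 7.42 and 10.4 CPM in DEN_WT, and 17.3 and 19.3 CPM in WT. Most of the WT sum was Cd3d, at 14 and 13.6 CPM in WT against 0.354 and 0.265 CPM in DEN_WT. Ptprc went the other way, with 6.73 and 5.21 CPM in DEN_WT against 2.87 and 0.553 CPM in WT. Ms4a1 was also above WT in both DEN_WT libraries, and the other markers of the list overlapped between DEN_WT and WT. Markers of gut and pancreas were between 32 and 72.3 CPM in PR-SET7_LOBE, 54.3 and 83.2 CPM in DEN_WT, and 17 and 59.8 CPM in WT, and the groups overlapped. Macrophage markers were between 476 and 982 CPM in PR-SET7_LOBE, 302 and 448 CPM in DEN_WT, and 370 and 1170 CPM in WT. Erythroid markers were between 188 and 705 CPM in PR-SET7_LOBE, 458 and 646 CPM in DEN_WT, and 1010 and 1500 CPM in WT, so both groups lay below WT, while none of the 4 tested passed in any comparison. Endothelial markers were between 256 and 746 CPM in PR-SET7_LOBE, 345 and 360 CPM in DEN_WT, and 475 and 634 CPM in WT. The part of these cell types in the results was not tested.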

How the data were processed

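Polyadenylated RNA of whole liver was sequenced on an Ion Proton, per the labels' protocols. The authors deposited raw counts of reads per Ensembl gene. The submitters' processing notes name the mm9 build, TopHat2 2.0.9, DESeq and Cufflinks. How reads were counted (tool, annotation, strand, multiple hits) is not given in the sources used here, so overlapping genes are uncertain. Coordinates of genes are from the deposited table. GENCODE M21 (GRCm38) gave exon lengths, transcript GC content and UTRs, and blastn 2.17.0 the nearest copies.

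Counts were scaled with TMM, filtered with filterByExpr by group and tested with edgeR 4.0.16 (robust quasi-likelihood, 1 fit of all 8 libraries with group as the only term, Benjamini-Hochberg adjustment over 17362 genes, threshold 0.05). Likeness used a prior count of 2. The members and lists were chosen with earlier results of these data known. Named genes are the 9 members, the 3 genes nearest to each (not predicted or unnamed; some are not reported here), and per list and comparison the called genes of smallest adjusted p (up to 4, at least 2). Replicates differed by more than sampling noise (lowest chi-square per degree of freedom 27.4). The fits were tested on simulated counts. Alternatives used DESeq2 1.42.0 and limma 3.58.1 (voom), other scalings and filters, the 2 groups alone, the replicate number as a block, each library left out, and a GC correction chosen after seeing the data.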

Additional observations from a re-analysis of the deposited data

Results flagged for a closer look

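In 6 of 43 groups of 4 PR-SET7_LOBE values that were examined, 1 library lay farther from the rest than Dixon's 95% critical value of 0.829 allows. The rate of 1 in 20 behind that value holds for normally distributed values. These were CPM on the linear scale, of genes named from these same libraries, so 6 of 43 is not compared with it. PR-SET7_LOBE replicate 1 held Vil1 at 59.5 CPM, against 3.55 to 9.76 CPM in the other 3, together with the stereocilia and microvillus actin bundler Espn at 49.0 CPM and the proprotein convertase Pcsk6 at 308 CPM. Vil1 and Espn both encode actin bundlers, and Pcsk6 in that library was at the level of WT (247 and 307 CPM). PR-SET7_LOBE replicate 2 held the fetal serum protein Afp at 32.1 CPM, the aldo-keto reductase Akr1b7 at 21.3 CPM and Bex1 at 24.8 CPM, each above the other 3 libraries.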

How the results depend on the processing

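Of the 9 genes, 7 passed in DEN_WT against WT, and 4 to 7 with a library left out, 6 with no filter (Vil1 lost) and 6 with the GC correction (Igf2bp3 lost); in PR-SET7_LOBE against DEN_WT 3 passed, 3 to 4 with a library left out and 5 with voom. In PR-SET7_LOBE against WT 1 passed, but 2 with upper-quartile scaling, 7 with DESeq2, 5 with no filter, 0 with the 2 groups alone and 2 with the GC correction, and 0 to 7 with a library left out (7 without PR-SET7_LOBE replicate 1). The related genes called there numbered 2, against 21 with DESeq2, 4 with voom, 8 with no filter, 1 with the 2 groups alone and 0 to 33 with a library left out. All genes called numbered 43, against 66 with upper-quartile scaling (71.2% higher instead of 60.5%), 850 with DESeq2, 216 with voom (35.2% higher), 419 with no filter, 19 with the 2 groups alone, 136 with the GC correction and 1 to 2380 with a library left out.

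In DEN_WT against WT the 11 related genes became 24 with DESeq2, 39 with voom, 20 with no filter, 37 with the 2 groups alone, 17 with the GC correction and 2 to 30 with a library left out. The 1689 genes in all became 3047 with DESeq2, 6301 with voom, 5643 with the 2 groups alone and 285 to 4516 with a library left out. In PR-SET7_LOBE against DEN_WT the 10 related and 1924 genes in all became 25 and 5164 with voom, and 1 to 11 and 420 to 2651 with a library left out. Where 1 library of WT or DEN_WT was left, it was assumed to vary like the other groups.

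With the replicate number as a block, 6 of the 9 genes, 12 related genes and 243 genes in all passed in PR-SET7_LOBE against WT, 25 and 3137 in DEN_WT against WT, and 19 related genes in PR-SET7_LOBE against DEN_WT. Labels give no shared animal or batch, deviations of same-numbered libraries correlated at 0.165 and 0.106 between PR-SET7_LOBE and WT and between -0.00874 and 0.0599 in the other comparisons, and with 2 pairs the numbers are not taken to pair the libraries. PR-SET7_LOBE replicates 3 and 4 have no partner in that fit, and the log2 fold changes that these libraries carry turned: Lin28b to -1.14 and Igf2bp1 to -0.78 against WT, and Lin28b to -0.08, Igf2bp1 to -0.99 and Dcc to -0.09 against DEN_WT. Vil1 in PR-SET7_LOBE against DEN_WT turned to -1.45 with voom, -1.41 without PR-SET7_LOBE replicate 1 (up to 0.57 with another library left out) and -0.07 with the GC correction, and Igf2bp1 in DEN_WT against WT to -0.03 without WT replicate 1 (up to 0.52 without WT replicate 2). Upper-quartile scaling moved the median of all genes by more than 0.1 in PR-SET7_LOBE against WT (0.29 instead of 0.11). Of the 27 nearest genes, 14 stayed with a prior count of 0.5 and 27 with RLE scaling; the cause of these changes was not tested. The level of 3 counts, near 0.28 CPM, limits Lin28b and Igf2bp1 in DEN_WT and WT.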
